A study of Mus musculus with 6 samples.

Results

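The genes that drive DNA replication and cell division were examined in poly(A)-selected RNA sequencing of mouse RPE/choroid, the retinal pigment epithelium scraped off together with the underlying vascular coat of the eye. The 42 genes were taken from a fixed list of gene symbols, not from measured values, and all 42 were found among the 33924 genes of the deposited table. They were divided into 14 replication genes, 7 regulators of the step from G1 into S phase and 21 genes of mitosis and its preparation. Their mean normalized counts all reached 10, the minimum set for reporting, so none was left out, and the lowest value was 23.1, for *Plk1*.

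The libraries came from 3 young and 3 aged wild-type C57BL/6J mice. According to the sample labels the mice were male, the young ones 1 to 2 months old and the aged ones 20 to 24 months in the title and 22 to 24 months in the time field. The study's methods describe a slightly older young group and mice of both sexes, with both eyes pooled in each sample. For every gene the table gives a single mean of the normalized counts over the 6 libraries, alongside columns of the authors' own comparison of the age groups, which were not used here. The values below are therefore the authors' means over young and aged tissue together. They carry no error between mice, no difference with age was tested, and the depth of single libraries is unknown.

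Cells enter division through D-type cyclins and, later, cyclin E with CDK2, which release E2F transcription factors from the retinoblastoma proteins. E2F then turns on the genes for the replication machinery, and a later wave of genes for mitosis is switched on in G2. RPE cells in the adult eye rarely divide, whereas the choroid holds vessels, fibroblasts, melanocytes and blood cells. In a bulk sample such as this, fewer cells of a type and less RNA per cell cannot be told apart.

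Both waves are known to act through short promoter elements, so promoters are shown first. RefSeq promoter windows of GRCm38.p6, from 250 bases before to 50 after the transcription start, were matched for 33 of the 42 genes, as 35 windows, since *E2f2* and *Mcm7* have 2 starts each. Genes with no window were *Aurkb*, *Ccna2*, *Ccnd1*, *Ccnd2*, *Ccne2*, *Foxm1*, *Mcm4*, *Pole* and *Tpx2*. Exact letters were searched on both strands for the E2F site (TTTCCCGC, TTTCGCGC, TTTGCCGC or TTTGGCGC), the cell cycle genes homology region or CHR (TTTGAA or TTTAAA), and the box bound by NF-Y (CCAAT). The CHR is the element through which the DREAM complex and the MuvB proteins act on G2 and mitosis genes. Matches of these letters describe the windows and are not shown to be bound sites.

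For the E2F site, the last 160 bases before the start are shown for *Mcm6* and *Mcm5*, subunits of the replicative helicase, for *Pola1*, the catalytic subunit of the polymerase that makes primers, for *Cdc6*, which loads the helicase, and for *Cdk2*. Capitals mark every match of the 3 motifs, and the sequences read 5′ to 3′ on the strand of the gene.
Mcm6, chr1:128359706-128359865, minus strand: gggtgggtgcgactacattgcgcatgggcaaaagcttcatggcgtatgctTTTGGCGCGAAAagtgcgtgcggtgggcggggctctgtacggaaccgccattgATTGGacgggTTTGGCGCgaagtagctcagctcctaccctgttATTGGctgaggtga
Mcm5, chr8:75109349-75109508, plus strand: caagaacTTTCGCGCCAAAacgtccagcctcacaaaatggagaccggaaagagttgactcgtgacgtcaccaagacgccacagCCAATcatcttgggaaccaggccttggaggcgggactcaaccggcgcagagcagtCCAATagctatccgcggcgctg
Pola1, chrX:93632156-93632315, minus strand: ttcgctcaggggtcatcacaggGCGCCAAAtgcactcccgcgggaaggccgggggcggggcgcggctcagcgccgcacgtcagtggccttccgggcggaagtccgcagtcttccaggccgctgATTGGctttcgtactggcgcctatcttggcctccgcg
Cdc6, chr11:98907991-98908150, plus strand: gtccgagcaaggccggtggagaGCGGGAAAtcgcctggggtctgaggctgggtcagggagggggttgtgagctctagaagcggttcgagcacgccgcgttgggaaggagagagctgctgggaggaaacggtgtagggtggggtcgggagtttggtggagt
Cdk2, chr10:128705052-128705211, minus strand: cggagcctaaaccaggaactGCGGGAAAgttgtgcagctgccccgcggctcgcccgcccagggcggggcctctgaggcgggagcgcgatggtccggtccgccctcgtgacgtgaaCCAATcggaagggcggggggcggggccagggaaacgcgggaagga

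In *Mcm6* and *Mcm5* a pair of E2F matches overlapped on opposite strands, which gives the capitals of the longer run in each. An E2F match was present in 7 of 13 replication windows (53.8%), those of *Cdc6*, *Cdt1*, *Mcm3*, *Mcm5*, *Mcm6*, *Mcm7* and *Pola1*. By comparison, 2.26% of the 32851 promoter windows in the RefSeq table held one, and 1 of 17 mitosis windows did (5.88%), that of *Cdk1*. Of the 12 matches in replication windows, 4 lay after the start. The windows of *Pcna*, *Rrm1*, *Rrm2*, *Tyms* and *Mcm2* held none of these letters.

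The mitosis genes showed the other element. The same stretch is given for *Cdk1*, the kinase that starts mitosis, its activating cyclin *Ccnb1*, the mitotic kinase *Plk1*, the activator of the anaphase-promoting complex *Cdc20*, and *Top2a*, the topoisomerase that untangles chromosomes.
Cdk1, chr10:69352913-69353072, minus strand: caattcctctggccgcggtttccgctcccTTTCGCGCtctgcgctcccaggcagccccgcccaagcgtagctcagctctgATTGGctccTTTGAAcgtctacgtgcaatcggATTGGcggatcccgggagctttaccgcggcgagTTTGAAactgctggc
Ccnb1, chr13:100786487-100786646, minus strand: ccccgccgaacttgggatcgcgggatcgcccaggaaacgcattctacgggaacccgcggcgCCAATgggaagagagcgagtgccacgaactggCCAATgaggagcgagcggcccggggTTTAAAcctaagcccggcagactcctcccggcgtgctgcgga
Plk1, chr7:122159275-122159434, plus strand: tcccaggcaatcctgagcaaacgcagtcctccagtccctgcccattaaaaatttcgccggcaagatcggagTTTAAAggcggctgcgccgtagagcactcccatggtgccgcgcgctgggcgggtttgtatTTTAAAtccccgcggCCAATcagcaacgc
Cdc20, chr4:118437344-118437503, minus strand: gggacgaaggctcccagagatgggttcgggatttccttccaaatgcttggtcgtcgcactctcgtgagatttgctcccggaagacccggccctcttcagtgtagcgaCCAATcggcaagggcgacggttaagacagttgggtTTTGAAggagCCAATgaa
Top2a, chr11:99024190-99024349, minus strand: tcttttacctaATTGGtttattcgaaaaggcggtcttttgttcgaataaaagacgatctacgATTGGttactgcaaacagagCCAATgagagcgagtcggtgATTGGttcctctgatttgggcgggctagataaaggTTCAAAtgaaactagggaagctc

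A CHR match was found in 15 of 17 mitosis windows (88.2%), in 3 of 13 replication windows (23.1%) and in 27.6% of all windows. The 2 mitosis genes without it were *Bub1* and *Nusap1*. An NF-Y box stood in 15 of 17 mitosis windows (88.2%) and in 10 of 13 replication windows (76.9%), against 37.4% of all windows. CHR and NF-Y box occurred together in 14 of the 17 mitosis windows (82.4%), against 10.7% of all windows. Of the 23 CHR matches in mitosis windows, 15 began within 50 bases of the start, in 13 genes, and the median position of the first base was -23. The NF-Y boxes in mitosis windows lay further upstream at the median, at -79 over 36 matches, but not in every gene. In *Plk1* the only box, at -14, came after CHR matches at -89 and -29. Among the 5 windows of G1/S regulators, 2 held an E2F match, in *Cdk2* and *E2f2*, and 2 a CHR match, in *Ccne1* and *E2f2*. The median GC content was 58.7% over the member windows and 52.7% over all windows. Over promoters of genes with a mean of at least 10, a background chosen after seeing the data, it was 59.7%.

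**Figure D1:**
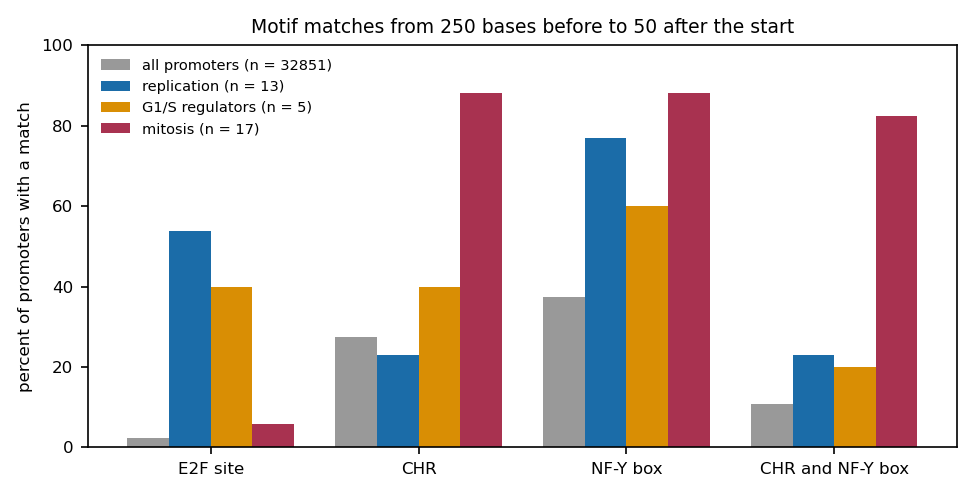
Percent of promoter windows (250 bases before to 50 after the start) with at least 1 match, on the vertical axis, for 3 motifs and for CHR with NF-Y box together, in all promoters and in the 3 classes of genes. E2F matches were most frequent in replication windows (53.8%), and CHR matches in mitosis windows (88.2%).

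**Figure D2:**
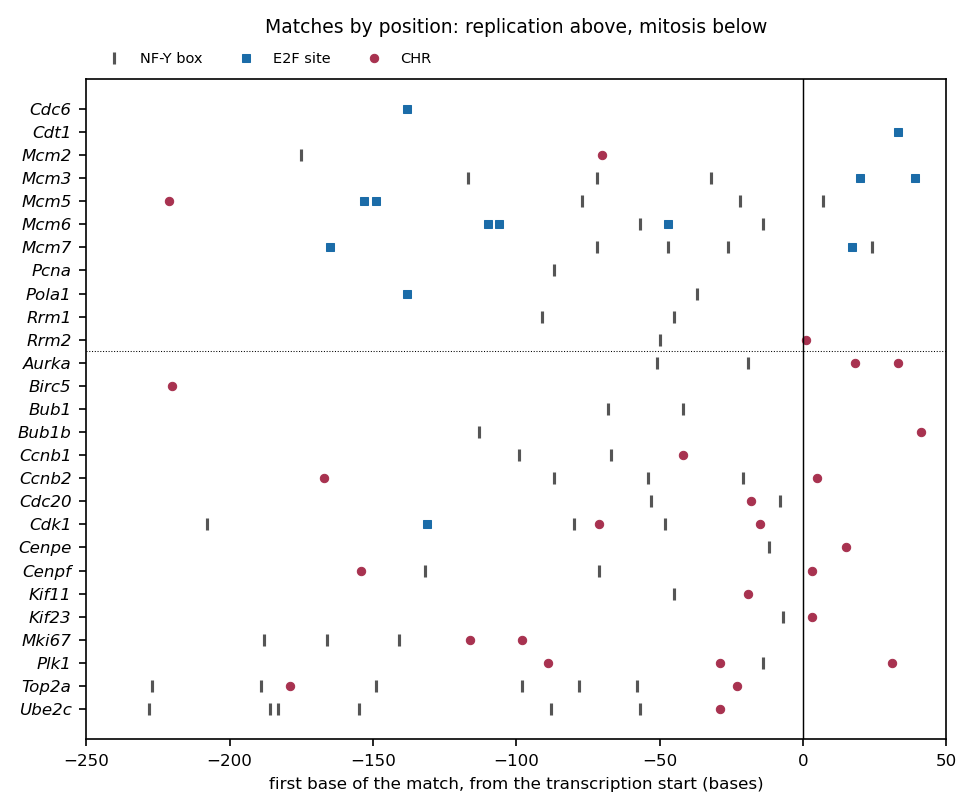
Position of the first base of each match from the transcription start, in bases, on the horizontal axis, with 1 line per gene (replication genes above the dotted line, mitosis genes below it). CHR matches of the mitosis genes gather near the start, with a median of -23. NF-Y boxes of the mitosis genes lie upstream of the start, with a median of -79.

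To compare levels between genes, each mean normalized count was divided by the length of the longest annotated transcript in kilobases. The study's methods derive normalized counts from TPM values of the program Sailfish, a unit already scaled for transcript length. Whether the deposited means keep that scaling is not given in the sources used here and was not tested. If they do, the division corrects for length again and places genes with long transcripts too low. After division, the median of all 17973 genes with a mean of at least 10 and a known length was 213 counts per kilobase. The 42 genes had a median of 50.5 and spanned from 4.15 for *Cenpf* to 3162 for *Pcna*. Only 8 of them lay above the table's median, of which 4 were replication genes, 3 were G1/S regulators and 1 was a mitosis gene. The whole set made up 0.0663% of the summed mean normalized counts, and *Pcna* and *Ccnd1* together held 51.0% of the set's summed counts per kilobase.

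The classes stood at different levels. Replication genes had a median of 148 counts per kilobase, G1/S regulators 79.5 and mitosis genes 19.8. Replication genes were thus 7.47 times the mitosis genes at the median, on the longest transcript, and 11.4 or 4.61 times with other measures of length. The median percentile among all genes with a mean of at least 10 was 42.0 for replication genes, 30.8 for G1/S regulators and 12.6 for mitosis genes. Without division by length these percentiles were 47.2, 32.5 and 21.5. As the classes were formed by function and each gene has a single pooled value, these differences are a description and were given no test.

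**Figure D3:**
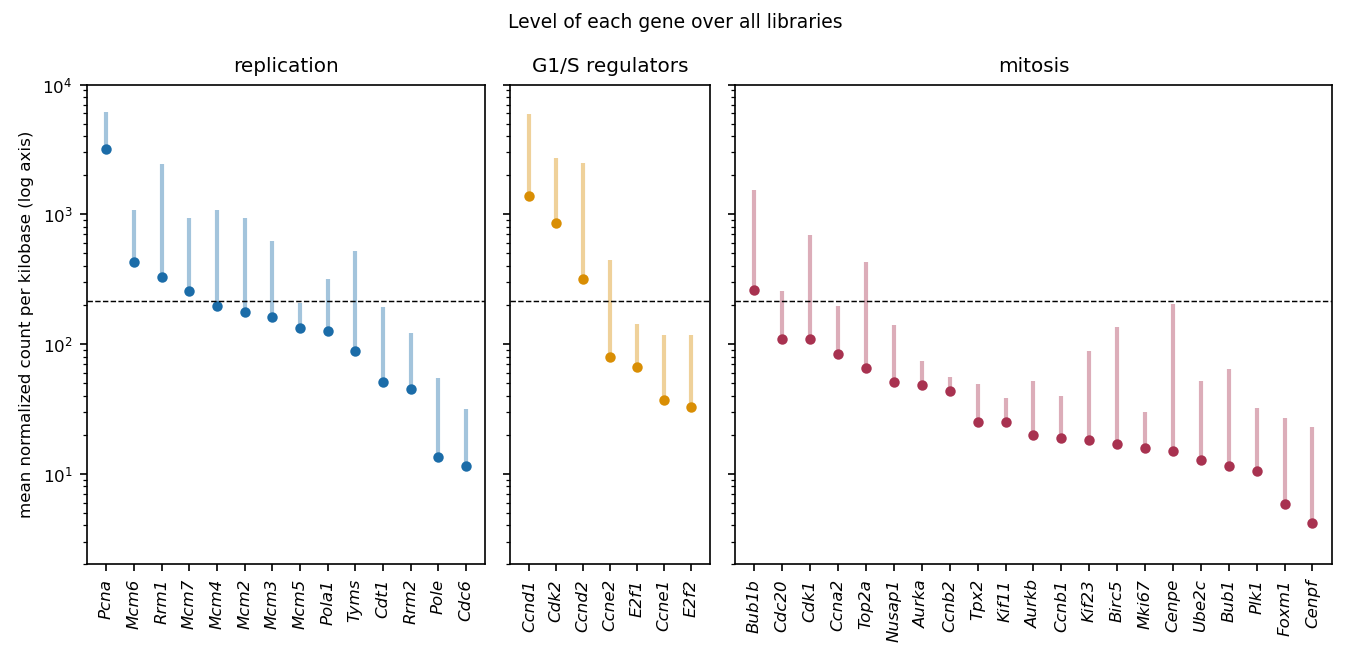
Mean normalized count per kilobase of each of the 42 genes on a log axis, in 3 panels by class. Points use the longest transcript, vertical lines span the values from the longest transcript, the median transcript and the coding length (not an error between mice), and the dashed line is the median of all genes at 213, by longest transcript. All mitosis genes but *Bub1b* have their point below the dashed line.

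Among the replication genes, *Pcna* was the highest. It encodes the sliding clamp that holds polymerases on DNA and that also serves DNA repair, and it lies on the minus strand of chromosome 2 (chr2:132249162-132253314, ENSMUSG00000027342). Its mean normalized count was 4799, which is 3162 counts per kilobase and percentile 94.0. A processed pseudogene, *Pcna-ps2*, shared 19.1% of the 50-base words of *Pcna* and was listed with a mean normalized count of 802, so reads may be split between them.

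The 6 subunits of the replicative helicase were all measured. *Mcm6* had a mean normalized count of 1873, *Mcm7* 762, *Mcm4* 707, *Mcm2* 613, *Mcm3* 555 and *Mcm5* 452. Per kilobase these were 430, 257, 197, 175, 162 and 134 in the same order. The subunits work together as a ring, and their levels spanned 3.22-fold, or 1.92-fold with *Mcm6* left out. The ratio of *Mcm6* to *Mcm5* was 6.17 with the median transcript and 3.70 with the coding length. The order of neighbours such as *Mcm2* and *Mcm3* cannot be judged without an error between mice. *Mcm7* shared 16.5% of its 50-base words with a processed pseudogene and its exons overlapped those of *Ap4m1* on the opposite strand by 321 bases.

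Both helicase loading factors among the members were lower. *Cdt1* had a mean normalized count of 136 (50.6 per kilobase) and *Cdc6* 55.4 (11.5 per kilobase, percentile 7.62). The helicase subunits stood at a median of 186 counts per kilobase. Genes of the origin recognition complex, which also takes part in loading and belongs to the wider list, were mostly higher than that, with *Orc3* at 642, *Orc6* at 558, *Orc4* at 523, *Orc2* at 432 and *Orc5* at 238 counts per kilobase, and *Orc1* at 6.71.

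Polymerase genes differed from each other. *Pola1* had a mean normalized count of 679 (127 per kilobase), whereas *Pole*, the catalytic subunit of the leading-strand polymerase, had 95.8 (13.4 per kilobase). The ratio of *Pola1* to *Pole* was 9.50 per kilobase of longest transcript, 5.82 of median transcript and 11.1 of coding sequence.

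The subunits of ribonucleotide reductase, which makes deoxynucleotides, were also unequal. *Rrm1*, the large subunit, had a mean normalized count of 1807 (330 per kilobase), and *Rrm2*, the small subunit that is made in S phase, had 98.6 (45.0 per kilobase). Per kilobase *Rrm1* was 7.34 times *Rrm2*, and 9.02 to 19.9 times with the other lengths. *Tyms*, which makes thymidylate, had 344 (88.6 per kilobase).

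Among the 7 G1/S regulators, *Ccnd1*, *Ccnd2* and *Cdk2* stood above the table's median and *Ccne1*, *Ccne2*, *E2f1* and *E2f2* below it. *Ccnd1*, encoding cyclin D1, had a mean normalized count of 5205, the largest of the 42, which is 1392 counts per kilobase and percentile 86.8 (chr7:144929931-144939925, minus strand, ENSMUSG00000070348). *Ccnd2* had 2003 (316 per kilobase), and *Cdk2* 2799 (858 per kilobase, percentile 79.5). The E-type cyclin partners of CDK2 were lower, *Ccne2* with 239 (79.5 per kilobase) and *Ccne1* with 74.1 (37.0 per kilobase). Per kilobase *Cdk2* was 23.2 times *Ccne1*, and 9.86 and 44.6 times with the other lengths. It was 10.8 times *Ccne2*, and 2.60 and 13.7 times with the other lengths. The transcription factors *E2f1* and *E2f2* had mean normalized counts of 184 and 155 (66.6 and 32.6 per kilobase).

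Exons of *Ccnd1* overlapped *LTO1* on the opposite strand by 1100 bases, and those of *Ccne2* overlapped *Ints8* by 609 bases, where *Ints8* was listed at 843. *Cdk2* overlapped *Pmel*, a pigment cell gene listed at 133753, by 34 bases. The study's methods name a stranded kit for libraries from RNA depleted of ribosomal RNA. Whether strand was used in the quantification is not given in the sources used here, so reads of such pairs may not have been told apart.

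Mitosis genes were the low end of the set, with 16 of 21 below percentile 25. The others were *Bub1b*, *Cdc20*, *Cdk1*, *Ccna2* and *Top2a*. The highest of them, and the only mitosis gene above the table's median, was *Bub1b*, which encodes the checkpoint protein BubR1 and lies at chr2:118598211-118641591 on the plus strand (ENSMUSG00000040084). It had a mean normalized count of 957 (261 per kilobase, percentile 54.5), and none of its 50-base words occurred in another gene. *Bub1*, its paralog in the same checkpoint, had 39.0 (11.4 per kilobase). *Bub1b* was 22.9 times *Bub1* per kilobase, and 24.2 and 24.7 times with the other lengths.

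The master kinase and its cyclins did not stand at one level. *Cdk1* had a mean normalized count of 477 (109 per kilobase), *Ccna2* 249 (84.0), *Ccnb2* 67.0 (43.8) and *Ccnb1* 46.9 (18.9). The ratio of *Cdk1* to *Ccnb1* was 5.78 per kilobase and rose to 14.7 and 17.3 with the other lengths. *Ccnb1* shared 18.9% of its 50-base words with the pseudogene *Ccnb1-ps* and lesser parts with others, and *Ccna2* overlapped *Exosc9* on the opposite strand by 510 bases.

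Usual marks of dividing cells among the mitosis genes lay below the table's median. *Pcna*, a replication gene, stood at percentile 94.0. *Mki67*, the gene of the Ki-67 antigen found in cycling nuclei, had a mean normalized count of 160, which for its long transcript was 15.9 per kilobase and percentile 10.4 (chr7:135689784-135716361, minus strand). *Top2a* had 341 (65.4 per kilobase). *Pcna* was 199 times *Mki67* per kilobase, and 193 and 365 times with the other lengths. Without division by length, the mean normalized counts were 4799 for *Pcna* and 160 for *Mki67*. *Foxm1*, a transcription factor of G2 genes, had 27.3 (5.88 per kilobase).

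The mitotic kinases and the chromosomal passenger complex were also low. *Aurka* had 92.5 (48.5 per kilobase), *Aurkb* 38.6 (19.8), its partner *Birc5* 56.6 (17.0) and *Plk1* 23.1 (10.5). Which of *Aurka* and *Aurkb* was higher depended on the length, with ratios of 2.45, 1.98 and, on the median transcript, 0.960.

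Genes that drive the exit from mitosis differed. *Cdc20* had 197 (110 per kilobase) and *Ube2c*, the ubiquitin-conjugating enzyme of the anaphase-promoting complex, 27.9 (12.8). Per kilobase *Cdc20* was 8.62 times *Ube2c*, 14.5 times with the median transcript and 2.53 times with the coding length. Exons of *Ube2c* overlapped *Tnnc2*, a muscle troponin gene on the opposite strand, by 592 bases, and *Tnnc2* was listed at 21.6. *Cdc20* overlapped *Elovl1*, listed at 3877, by 53 bases.

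Spindle and kinetochore genes made up a further group, all below the table's median. *Nusap1* had 178 (50.5 per kilobase), *Kif11* 120 (24.95), *Tpx2* 110 (25.2) and *Kif23* 61.4 (18.1), all of them motor proteins or microtubule binders of the spindle. The kinetochore genes *Cenpe* and *Cenpf* had 118 (14.9) and 46.2 (4.15), and *Cenpf* was the lowest of the 42 per kilobase of longest transcript, at percentile 1.56. With the median transcript *Cenpf* stood at 22.9 counts per kilobase, above *Ube2c* (17.7) and *Cdc6* (15.5). Without division by length the lowest gene was *Plk1*, at 23.1, and *Cenpf* stood at 46.2.

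Other genes of the same pathways, from lists that do not contain the members, were described by the same measures. All 44 further replication genes, 17 further G1/S genes and 46 further mitosis genes had a mean of at least 10. Their medians were 139, 197 and 28.4 counts per kilobase, at percentiles 41.0, 48.2 and 16.5. The mitosis list was again the lowest, whereas the G1/S list stood above the replication list here and below it among the members. The wider replication list was led by *Pole4* (3861), *Rpa1* (1911) and *Pole3* (1044) and ended with *Mcm10* (13.7), *Clspn* (6.83) and *Orc1* (6.71), all in counts per kilobase. The wider G1/S list was led by *Cdk4* (1476), *Tfdp1* (542) and *Ccnd3* (423), and its lowest were *E2f7* (3.96), *Cdk6* (3.27) and *E2f8* (3.15). *Cdk4*, the kinase partner of the D-type cyclins, was thus near *Ccnd1* itself (1392) with the longest transcript. *Ccnd1* stood at 2936 with the median transcript and 5882 with the coding length, and *Cdk4* was not measured with these lengths. The wider mitosis list was led by *Pttg1* (1806), *Bub3* (679) and *Spc25* (395) and ended with *Cdc25c* (8.28), *Aspm* (6.25) and *Cit* (3.47). Of these 46 mitosis genes, 40 lay below the table's median.

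Marker genes of the cell types in the tissue give the scale for these levels. RPE markers had a median percentile of 99.8, with 5 of 6 above 97.8 and *Best1* at 20.7, and melanocyte markers, many of which RPE also expresses, 99.7. Markers of rods, from the neighbouring retina, stood at 98.1 and those of skeletal muscle at 99.5. Fibroblast, macrophage, endothelial and Schwann cell markers stood at 90.1, 92.3, 80.5 and 63.9. B and plasma cell markers had a median percentile of 19.6 over 4 genes, and T cell markers 21.2 over 4 genes, without *Cd3e*, whose mean normalized count of 2.40 was under the minimum. Among red cell markers, *Hba-a1* stood at percentile 99.8, *Alas2* at 77.8, *Epor* at 19.1 and *Klf1* at 5.53. The part of any cell type in the levels of the cell division genes was not tested.

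**Figure D4:**
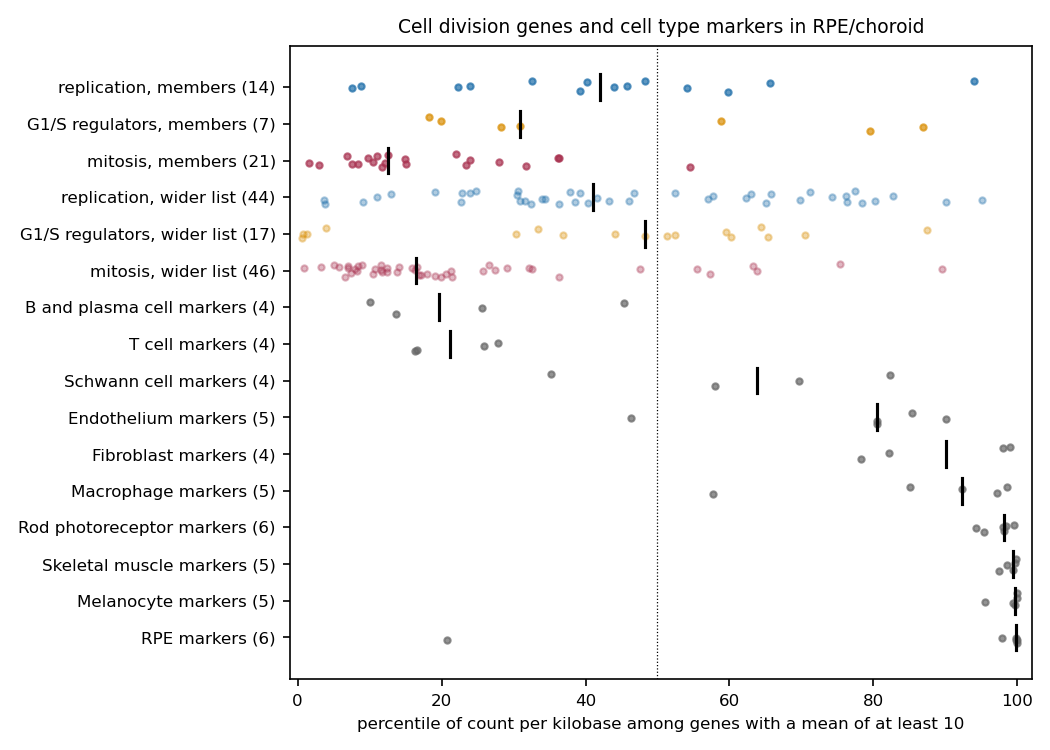
Percentile of the mean normalized count per kilobase among genes with a mean of at least 10, on the horizontal axis, for the 3 classes of members, the wider lists and the markers of other cell types (red cells not plotted). Each point is a gene, black bars are medians, the number of genes is in parentheses and the dotted line is percentile 50. Mitosis genes gather on the left in both lists, with medians of 12.6 and 16.5, and RPE markers on the right.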

How the data were processed

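Libraries of RPE/choroid RNA from 3 young and 3 aged mice were made from poly(A) RNA per the labels, which also name a ribosomal RNA depletion kit. Per the study's methods and the submitters' processing notes, the authors trimmed reads with BBDuk, mapped pairs with STAR to the GRCm38 annotation, quantified with Sailfish, scaled to total counts and ran DESeq2. The deposited signal used here is the authors' mean of normalized counts over all libraries, 1 value per gene. The authors' fold changes, their errors, statistics and p-values fill the other columns and were not used. The planned test of age needs a value per library and could not be run.

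Lengths and positions came from GENCODE M21 (GRCm38), which gave a length for 97.3% of the 18479 genes with a mean of at least 10, by symbol or, for 1531, by synonym. Words of 50 bases that each gene shares with others were searched on both strands, and 9 of the 42 genes had under 90% of words to themselves. Of 35 member windows, 29 ended inside a GENCODE transcript of the gene. Percentile and motif code was tested on simulated data. Python 3.11.15, numpy 2.4.6, pandas 2.3.3 and matplotlib 3.10.9 were used. All members are named, and from each wider list the 3 highest and 3 lowest. The other genes of the origin recognition complex in the wider replication list are named as well, outside that rule. Members and lists were chosen with earlier results of these data known. The red cell marker list is not reported here as a whole.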

Additional observations from a re-analysis of the deposited data

How the results depend on the processing

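No paired analysis was possible because only a mean over all libraries was used, and for the same reason no replicate was left out and no other scaling was tried. Of 58 repeats of the class results under other settings, 43 stayed within 1.5 times the value reported and 15 moved further. Some of the 43 could not move, because every member already passed the minimum of 10. Among these were the repeats with a minimum of 1 and those that kept every member. The tally therefore cannot show how stable the class results are. The median level and percentile of replication genes were above those of mitosis genes in each repeat of these measures. A minimum of 100 kept 10 mitosis genes. Dividing by the median transcript gave medians of 568 counts per kilobase for replication genes, 447 for G1/S regulators and 49.7 for mitosis genes, and dividing by coding length gave 227, 197 and 49.2. The ratio of replication to mitosis genes was then 11.4 and 4.61. The median percentile of G1/S regulators was 48.3 among genes above 0 and 19.95 among genes at 50 or more, and that of mitosis genes 34.2 and 3.20. Without division by length, mitosis genes stood at percentile 21.5. With 150 bases before the start, 1 replication window held CHR and NF-Y box together. Among promoters of genes with a mean of at least 10, a background chosen after seeing the data, 3.51% held an E2F match, 20.2% a CHR match, 37.2% an NF-Y box and 7.91% the last pair.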
